A study of Heterocephalus glaber and Cavia porcellus and Spalacopus cyanus with 7 samples.

Results

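The spindle checkpoint and Aurora kinase genes examined here are 10 genes chosen by symbol: Aurka, Aurkb, Aurkc, Bub1, Bub1b, Bub3, Mad2l1, Ttk, Incenp and Cenpe. Symbols were matched without regard to case. The naked mole-rat table, with 26623 gene entries, holds 9 of them, and the guinea pig table, with 25603 entries, also holds 9. Mad2l1 has no entry under that symbol in the naked mole-rat table used here, and Aurkc has none in the guinea pig table used here, so that 8 members could be set side by side between the species.

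RNA of oocytes was sequenced in 7 libraries. The naked mole-rat gave 5 libraries from 1 female each, aged 1 to 8 years, and the guinea pig gave 1 library from the merged oocytes of 3 females aged 6 to 9 months. The oocytes were fully grown or late in growth, and their cumulus cells had been stripped by pipetting. The paper names no treatment of the females. A coruro library of 1 female, aged 2 years, was counted over 3 sequences that hold none of the members and was not used here. Naked mole-rat replicates 2 and 3 carry the letter Y and replicates 4 and 5 the letter O, which the sources used here do not explain, and replicate 1 carries no letter. No library is of single cells, and the guinea pig value comes from 1 pool with no replicate.

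Dividing cells hold back chromosome segregation until every kinetochore is attached to the spindle. The kinase encoded by Ttk (also called Mps1) starts this spindle checkpoint, and Bub1, Bub1b (BubR1) and Bub3 gather at unattached kinetochores. Mad2l1 (Mad2), Bub1b and Bub3 are parts of the complex that inhibits the anaphase promoting complex. Aurora A, encoded by Aurka, acts at spindle poles, and Aurora B and the germ cell paralog Aurora C, encoded by Aurkb and Aurkc, act at centromeres within the chromosomal passenger complex, whose scaffold is Incenp. In mouse oocytes these genes are known for their part in the divisions of meiosis, and Bub1b also for its part in the long arrest before them.

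Counts assigned to genes totalled 13512223 to 29561451 per naked mole-rat library and 24515642 in the guinea pig library. Levels are given as counts per 1000000 counts (CPM), on plain totals of each table. The limit of 3 counts was 0.101 to 0.222 CPM in the naked mole-rat libraries and 0.122 CPM in the guinea pig library, and intervals and limits cover counting error only. Replicate 1 came in a table of its own and stood apart in its markers. The summed level of 19 granulosa and cumulus markers was 6287 CPM in replicate 1 against 1026 to 1917 CPM in the other 4 libraries and 792 CPM in guinea pig. The summed level of the 12 oocyte markers with an entry was 4465 CPM in replicate 1 against 8500 to 10350 CPM in the others. Of the 19 markers, 15 were highest in replicate 1 and 1, Has2, was lowest. The summed levels of 8 stroma and 8 immune markers were also highest there, at 201 against 4.77 to 35.6 CPM and at 114 against 7.0 to 26.3 CPM, with 5 and 6 of the genes highest in that library. Col1a1, at 126 CPM, and Cd74, at 98.6 CPM, made up most of these sums. The summed level of 7 endothelial markers was lowest in replicate 1, at 107 against 115 to 279 CPM, with 2 of the genes highest there and 1 lowest. The gene lowest there, Flt1, at 47.1 CPM, made up most of that sum together with Tek, at 38.3 CPM. The 2 highest there, Cdh5 and Egfl7, had 1.33 and 6.14 CPM. None of these listed markers was at 0 in all 5 libraries. The part of these cells in any result below was not tested, and in bulk RNA fewer cells of a type cannot be told apart from less RNA per cell.

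All 9 members with a naked mole-rat entry reached 10 CPM in each of the 5 libraries. By mean counts the order was Bub1b, Aurka, Cenpe, Bub3, Aurkc, Bub1, Ttk, Incenp and Aurkb. Since CPM holds transcript length, and coding lengths were not given in the reference table used here, this is an order of counts and not of transcript numbers. Bub1b had more counts than Aurka in all 5 libraries, Cenpe more than Bub3, Bub1 more than Ttk, and Incenp more than Aurkb. The other neighbours changed places between libraries: Aurka exceeded Cenpe, Bub3 exceeded Aurkc, and Aurkc exceeded Bub1 in 3 of 5 libraries each, and Ttk exceeded Incenp in 4 of 5.

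**Figure D1:**
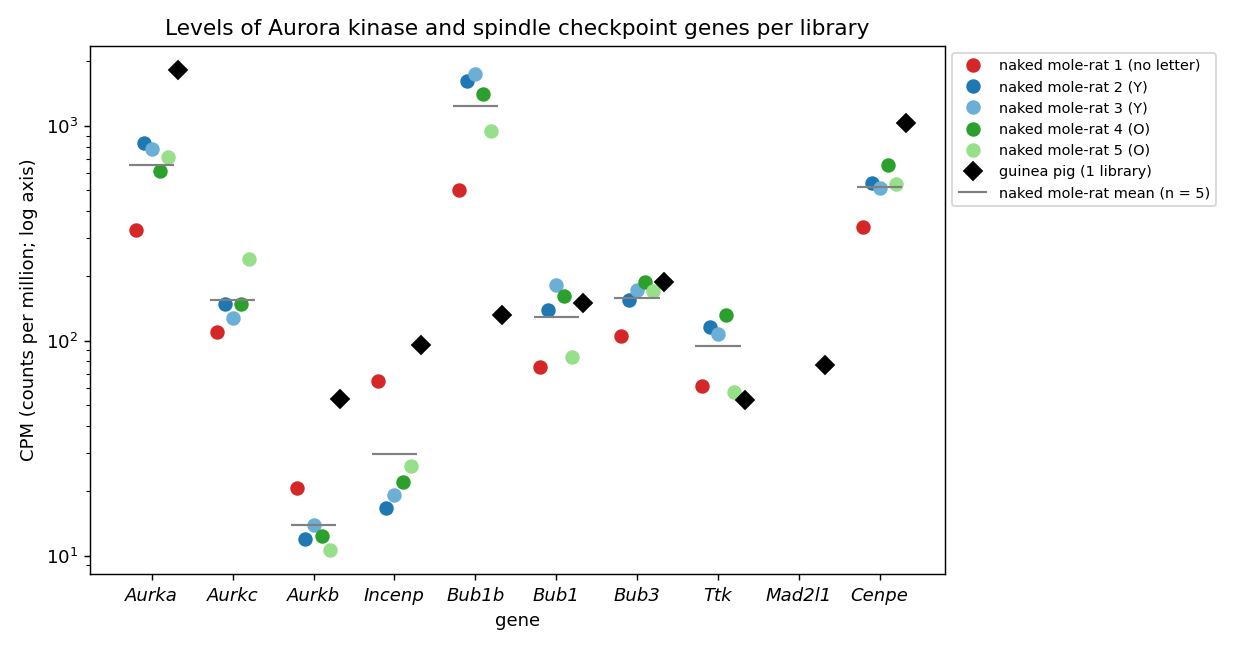
Level of each member in CPM (log axis) in the 5 naked mole-rat libraries (coloured points, replicate 1 in red, with a grey line at their mean) and in the guinea pig library (black diamonds, no replicate). Bub1b in guinea pig, at 132 CPM, lies below every naked mole-rat library, and Aurkb and Incenp are the members that were highest in replicate 1.

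Of the 3 Aurora kinase genes, Aurka took most of the counts in every naked mole-rat library. Its levels were 328, 831, 776, 619 and 717 CPM in replicates 1 to 5, a mean of 654 ± 199 CPM (SD, n = 5). Replicate 1 lay below the other 4, which averaged 736 ± 90.9 CPM (SD, n = 4). Aurkc had 110, 149, 127, 148 and 239 CPM, a mean of 154 ± 49.8 CPM (SD, n = 5), with replicate 5 above the rest. Aurkb had the lowest counts of the 3, at 20.6, 11.9, 13.9, 12.3 and 10.6 CPM, from 192 to 344 counts per library. Its highest value was in replicate 1, where Aurka and Aurkc were at their lowest.

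As a share of the summed counts of Aurka, Aurkb and Aurkc, Aurka made up 71.5, 83.8, 84.6, 79.5 and 74.2% in replicates 1 to 5, or 78.7 ± 5.78% (SD, n = 5). The share of Aurkc was 24.0, 15.0, 13.8, 18.9 and 24.7%, or 19.3 ± 4.99% (SD, n = 5). The share of Aurkb was 4.49, 1.2, 1.52, 1.57 and 1.10%, and it was 1.35 ± 0.235% (SD, n = 4) without replicate 1. The order Aurka, Aurkc, Aurkb thus held in each library, while the Aurkb share in replicate 1 lay outside the spread of the other 4. The count ratio of Aurkc to Aurkb ranged from 5.35 in replicate 1 to 22.5 in replicate 5. The shares hold transcript length and are not molar shares.

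In guinea pig only Aurka and Aurkb could be set against each other. Aurkb took 2.85% of their 45890 counts (95% Clopper-Pearson interval 2.70 to 3.0%). In naked mole-rat the corresponding shares were 5.91, 1.41, 1.76, 1.94 and 1.45%, so that the guinea pig lay above 4 of the libraries and below replicate 1. Both paralogs had higher levels in guinea pig, at 1819 CPM for Aurka (95% exact Poisson interval 1802 to 1836) and 53.3 CPM for Aurkb (50.5 to 56.3), which was 2.19 and 2.59 times the highest naked mole-rat library. For Aurkb the multiple was 3.83 when replicate 1 was left out.

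**Figure D2:**
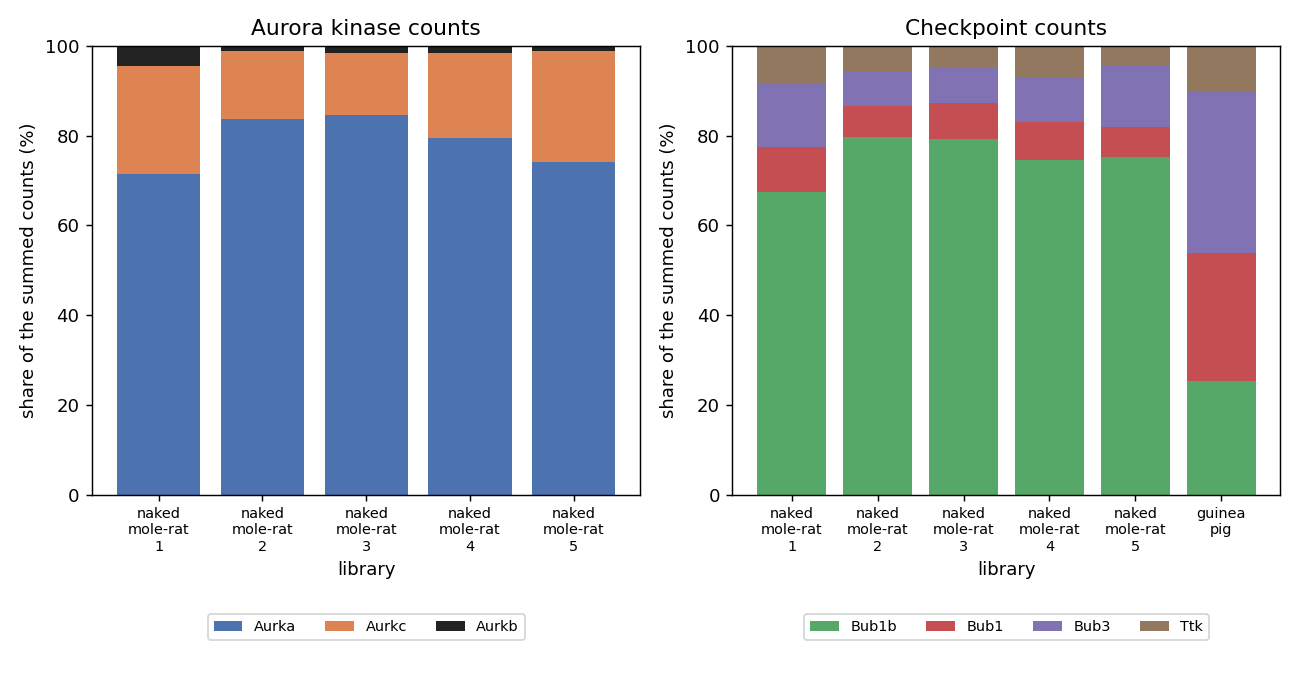
Shares in percent of the summed counts, stacked per library: left, Aurka, Aurkc and Aurkb in the 5 naked mole-rat libraries; right, Bub1b, Bub1, Bub3 and Ttk in those libraries and in guinea pig. Bub1b makes up 67.5 to 79.7% of the checkpoint counts in naked mole-rat and 25.3% in guinea pig.

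Incenp, which anchors Aurora B and Aurora C and promotes their activity, varied more between the naked mole-rat libraries than any other member. It had 64.8 CPM in replicate 1 and 16.7, 19.0, 21.9 and 26.0 CPM in replicates 2 to 5, and the coefficient of variation of 67.1% over all 5 fell to 19.1% without replicate 1. In guinea pig it stood at 95.8 CPM (95% exact Poisson interval 91.9 to 99.7), which was 1.48 times replicate 1 and 3.69 times the highest of the other 4. Incenp and Aurkb were the members that were highest in replicate 1, where the summed granulosa, stroma and immune markers were also highest. Of 10 proliferation genes compared, 4 were highest there and 5 were lowest, against 32.5% and 33.9% of all genes.

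Count ratios between members were chosen after their values were seen and are given as descriptions. The ratio of Incenp to Aurkc was 0.589 in replicate 1 and 0.109 to 0.150 in the others. The ratio of Incenp to Aurkb was 3.15, 1.40, 1.37, 1.78 and 2.45 in naked mole-rat and 1.80 in guinea pig, inside that range. The other subunits of the passenger complex, survivin (Birc5) and borealin (Cdca8), had 40.3 to 70.4 and 83.6 to 147 CPM in naked mole-rat, and both were lowest in replicate 1, unlike Incenp. In guinea pig Birc5, at 44.0 CPM, lay inside the naked mole-rat range, and Cdca8, at 163 CPM, lay above it.

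Bub1b, a pseudokinase that as BubR1 is part of the inhibitory complex and in mouse oocytes also holds the prophase arrest, had the most counts of the checkpoint members in every naked mole-rat library. Its levels were 502, 1614, 1750, 1398 and 946 CPM, a mean of 1242 ± 514 CPM (SD, n = 5) and a range of 3.48 times. Of the 26623 entries, 42 had a higher mean level. In guinea pig Bub1b had 132 CPM from 3243 counts (95% exact Poisson interval 128 to 137), and 1914 entries were higher. The lowest naked mole-rat library, replicate 1, was 3.80 times the guinea pig value, and the lowest of the other 4 was 7.15 times that value.

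Its paralog Bub1, the kinase that marks centromeric chromatin, did not differ in this way. Bub1 had 75.0, 140, 182, 161 and 83.6 CPM in naked mole-rat, and the 149.7 CPM of guinea pig (145 to 155) fell inside that range. The ratio of Bub1b to Bub1 counts was 6.69, 11.6, 9.63, 8.69 and 11.3 in the 5 libraries, or 9.58 ± 2.0 (SD, n = 5), and 0.884 (95% interval 0.843 to 0.927) in guinea pig. The lowest naked mole-rat ratio was therefore 7.57 times that of guinea pig. A ratio within a library needs no scaling by its total, but transcript length and gene models differ between the species' annotations and their part in the ratio was not tested.

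Bub3, the adapter that carries Bub1 and Bub1b to kinetochores, had the smallest coefficient of variation of the members, with levels of 105, 154, 172, 187 and 170 CPM, and its coefficient of variation was 7.91% without replicate 1. Guinea pig had 188 CPM (183 to 194), which was 1.00 times the highest naked mole-rat library. Ttk had 61.7, 116, 107, 131 and 57.5 CPM, with replicates 1 and 5 low, and 53.2 CPM in guinea pig (50.4 to 56.2). The lowest naked mole-rat library was 1.08 times that value. Ttk stayed below Bub1 in each library, at 0.590 to 0.832 of the Bub1 counts in naked mole-rat and 0.356 in guinea pig.

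Of the summed counts of Bub1, Bub1b, Bub3 and Ttk, Bub1b made up 67.5, 79.7, 79.1, 74.5 and 75.2% in naked mole-rat. The other 3 genes had mean shares of 8.08 ± 1.39% for Bub1, 10.6 ± 3.09% for Bub3 and 6.09 ± 1.55% for Ttk (SD, n = 5). Among the 12828 such counts of guinea pig the shares were 25.3% for Bub1b (95% Clopper-Pearson interval 24.5 to 26.0), 28.6% for Bub1, 35.9% for Bub3 and 10.2% for Ttk. Bub1b thus led by counts in each naked mole-rat library, and Bub3 led in guinea pig.

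Mad2l1 could be read only in guinea pig, where it had 76.7 CPM (95% exact Poisson interval 73.3 to 80.3) from 1881 counts. Cenpe, the kinesin that links kinetochores to microtubule ends, had 337, 543, 512, 654 and 536 CPM in naked mole-rat and 1033 CPM in guinea pig (1020 to 1046), 1.58 times the highest naked mole-rat library. The ratio of Cenpe to Bub1b counts was 0.293 to 0.670 in naked mole-rat and 7.81 in guinea pig.

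Replicate 1 was the lowest of the 5 libraries for 6 of the 9 members (Aurka, Aurkc, Bub1, Bub1b, Bub3 and Cenpe), where 33.9% of 8486 genes were lowest in it. It was the highest for 2 of the 9, Aurkb and Incenp, where 32.5% of those genes were highest. On the log2(CPM + 1) scale, replicate 1 minus the mean of the others was -1.47 for Bub1b, -1.16 for Aurka, 0.72 for Aurkb and 1.60 for Incenp. The members' median was -0.69, against -0.06 over all genes compared. With TMM scaling, which lowers all genes of replicate 1 by 0.17 on the log2 scale, 7 members were lowest, against 42% of all genes, and 2 were highest, against 26.9%. Oocyte markers also moved this way, with 9 of the 10 compared lowest in replicate 1 and a median of -1.11.

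The species were compared with no test, since guinea pig has 1 library. The 10279 genes compared had the same symbol in both tables and reached 100 counts either in the guinea pig library or in all 5 of the naked mole-rat. Of these, 8.95% lay more than 4 times above the highest naked mole-rat library in guinea pig and 8.35% lay below the lowest by the same factor. None of the 8 members did either. At a factor of 2, Aurka and Aurkb were higher in guinea pig, where 18.5% of genes were, and Bub1b was lower, where 15.1% were. Guinea pig lay outside the naked mole-rat range on the upper side for 5 members (Aurka, Aurkb, Bub3, Incenp and Cenpe), against 37.2% of all genes, and on the lower side for 2 (Bub1b and Ttk), against 29.1%. For Bub3 the excess, 188 against 187 CPM in the highest library, lay inside its counting interval of 183 to 194 CPM. Bub1 was the member within the range.

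Guinea pig minus the naked mole-rat mean, on the log2(CPM + 1) scale, was 1.91 for Aurkb, 1.84 for Incenp, 1.54 for Aurka, 1.03 for Cenpe, 0.31 for Bub1, 0.28 for Bub3, -0.74 for Ttk and -3.09 for Bub1b. Over all genes compared the median difference was 0.29. Relative to it, Bub1 at 0.02 and Bub3 at -0.01 stood at the middle of the transcriptome, and Bub1b stood at -3.38. After centring on this median Bub1b also passed the factor of 4 on the lower side, where 9.83% of genes did, and it passed without replicate 1, where 10.2% did. Summed endothelial markers were at 591 CPM in guinea pig against 107 to 279 CPM in naked mole-rat and stroma markers at 381 CPM against at most 201 CPM. Summed granulosa and cumulus markers went the other way, at 792 CPM against 1026 to 6287 CPM. Summed immune markers, at 12.1 CPM, lay inside the naked mole-rat range of 7.0 to 114 CPM. Of 7 endothelial markers compared, 5 lay above every naked mole-rat library and 1, Pecam1, lay below, with Tek alone at 450 CPM. Of 6 stroma markers compared, 5 lay above and 0 below. Of 17 granulosa and cumulus markers compared, 1 lay above and 7 below, and the 1 immune marker compared lay inside the range. Of all genes compared, 37.2% lay above and 29.1% below. Their part in the contrast was not tested. Species, female age, pooling of females and annotation cannot be told apart in this contrast.

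**Figure D3:**
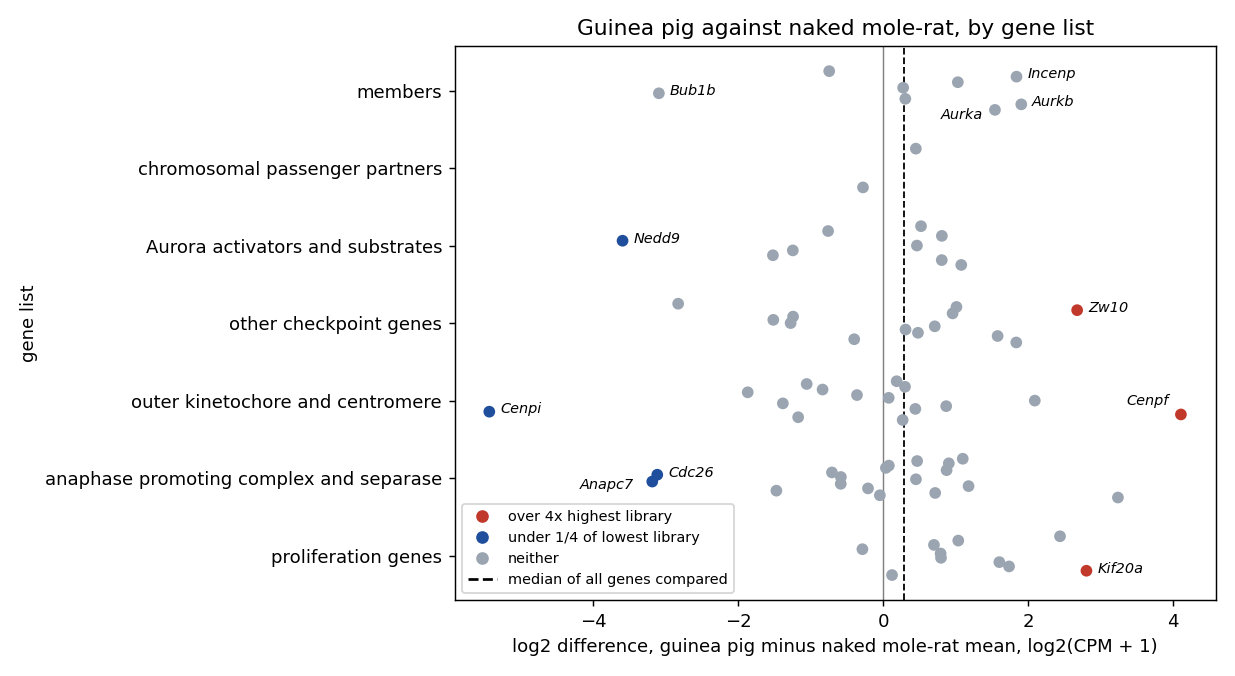
Guinea pig minus naked mole-rat mean in log2(CPM + 1) for each gene of the member list and of 6 pathway lists, with 1 point per gene, colour for genes beyond the factor of 4 and a dashed line at the median of all genes, 0.29. Bub1b, at -3.09, is the member farthest from that line, and Cenpi and Cenpf are the pathway genes farthest out on either side.

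The pathway genes around the members held 67 genes compared of 71 listed, 3 of them called higher and 4 called lower in guinea pig by the factor of 4, with a median difference of 0.31 on the log2 scale against 0.29 over all genes. Of all genes, 8.95% and 8.35% were called. Against every naked mole-rat library, 29 of the 67 lay above and 18 below, where 37.2% and 29.1% of all genes did. Of 9 Aurora activators and substrates, Nedd9, a scaffold that activates Aurora A, was called lower, with 30.4 to 85.2 CPM in naked mole-rat and 3.79 CPM in guinea pig. With 93 counts in guinea pig, under the minimum of 100, Nedd9 entered the comparison only through the naked mole-rat libraries, where it was high. Tpx2, which activates Aurora A on spindle microtubules, had 192, 432, 478, 456 and 306 CPM, lowest in replicate 1 like Aurka, and 509 CPM in guinea pig. The most abundant of this list, Tacc3, an Aurora A substrate of the spindle, had 722 to 1819 CPM against 678 CPM, and Cdc25b, a phosphatase that starts meiotic resumption in mouse, had 689 to 1523 CPM against 385 CPM.

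Of 13 other checkpoint genes, Zw10, a subunit of the complex that brings dynein to kinetochores, was called higher, with 13.5 to 26.7 CPM in naked mole-rat and 123 CPM in guinea pig. The median of this list was 0.48. Knl1, the kinetochore scaffold that Bub1, Bub1b and Bub3 bind, had 120 to 242 CPM and 140 CPM in guinea pig, inside the range as Bub1 was. Its partner Zwint had 150 to 510 CPM, and its lowest library was 3.12 times the 48.2 CPM of guinea pig. Tpr, a nuclear pore protein that binds Mad1 and Mad2, had 359 to 642 CPM against 163 CPM.

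Among 15 kinetochore and centromere genes compared, Cenpf, a large coiled-coil protein of the outer kinetochore, was called higher, with 182, 57.7, 27.0, 69.3 and 88.5 CPM in naked mole-rat and 1234 CPM in guinea pig. In naked mole-rat Cenpf was highest in replicate 1, like Incenp and Aurkb, but the list did not share this. Of its 14 genes compared between the libraries, 1 was highest there and 8 were lowest, against 32.5% and 33.9% of all genes. Cenpi, an inner kinetochore subunit, was called lower, with 33.7 to 89.8 CPM against 0.367 CPM in guinea pig (0.168 to 0.697) from 9 counts. Like Nedd9, Cenpi entered the comparison only through the naked mole-rat libraries, where it was high. Of the Ndc80 complex, which binds microtubules, Ndc80 had 71.4 to 250.2 CPM against 178 CPM and Nuf2 had 125 to 289 CPM against 57.6 CPM, and Nsl1 of the Mis12 complex had 68.2 to 240 CPM against 111 CPM. Pmf1 has no entry in the naked mole-rat table used here and Cenph none in the guinea pig table.

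The targets of the checkpoint, 18 genes of the anaphase promoting complex, its regulators and separase, had a median of 0.06. The subunits Anapc7 and Cdc26 were called lower in guinea pig, with 569 to 972 CPM against 88.6 CPM and 49.5 to 110 CPM against 8.0 CPM. Separase (Espl1) had 225 to 415 CPM against 570 CPM, and its inhibitor securin (Pttg1) had 242 to 849 CPM against 969 CPM. Of 10 proliferation genes compared, 8 lay above every naked mole-rat library in guinea pig and 0 below, against 37.2% and 29.1% of all genes, with a median of 0.92. The kinesin Kif20a was called higher, with 15.0 to 39.8 CPM against 175 CPM, the proliferation antigen Mki67 had 154 to 281 CPM against 363 CPM, and the spindle midzone protein Prc1 had 428 to 1024 CPM against 1317 CPM. Pcna, the replication clamp, had 370 to 630 CPM against 432 CPM, inside the range. Top2a and Mcm2 have no entry in the naked mole-rat table used here.

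Between the letters the members showed no difference that passed the test. With edgeR's quasi-likelihood test over 15079 genes in the 2 libraries of each letter, 0% of genes were called at an adjusted p of 0.05, among them 0 of 9 members, and 707 genes and 0 members had an unadjusted p under 0.05. DESeq2 called 71 genes and 0 members. Bub1b had 1614 and 1750 CPM with the letter Y and 1398 and 946 CPM with the letter O, a log2 difference of -0.63 ± 0.30 (O minus Y, SE), with an unadjusted p of 0.0599 and an adjusted p of 1.00 in edgeR. Aurka had a log2 difference of -0.39 ± 0.28 and Aurkc one of 0.35 ± 0.34. The libraries of the letters did not overlap for 3 of the 9 members (Aurka, Bub1b and Incenp), where they did not for 35.2% of all genes. The members' median was -0.29, against 0.05 over all genes.

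Replicates 4 and 5, which share the letter O, differed from each other for several members. Bub1 had 161 CPM in replicate 4, inside the 140 to 182 CPM of the letter Y, and 83.6 CPM in replicate 5, below it. Likewise, Ttk had 131 CPM in replicate 4 and 57.5 CPM in replicate 5. With replicate 4 or 5 left out, the lone O library is assumed to vary as the pair with the letter Y did. Without replicate 5, the log2 difference was -0.32 for Bub1b, -0.05 for Bub1 and 0.18 for Ttk. Without replicate 4, it was -0.99 for Bub1b, -1.10 for Bub1 and -1.12 for Ttk, and edgeR called Bub1b. That fit called 494 of 16209 genes, 355 of them (2.19% of those tested) lower with the letter O as Bub1b was, and 4 of the 68 pathway genes tested. With all 4 libraries, edgeR called 0 of the 68 pathway genes and 1 had an unadjusted p under 0.05, with a median of -0.21. Each letter holds 2 females, so that p-values rest on the spread between 2 libraries per letter.

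**Figure D4:**
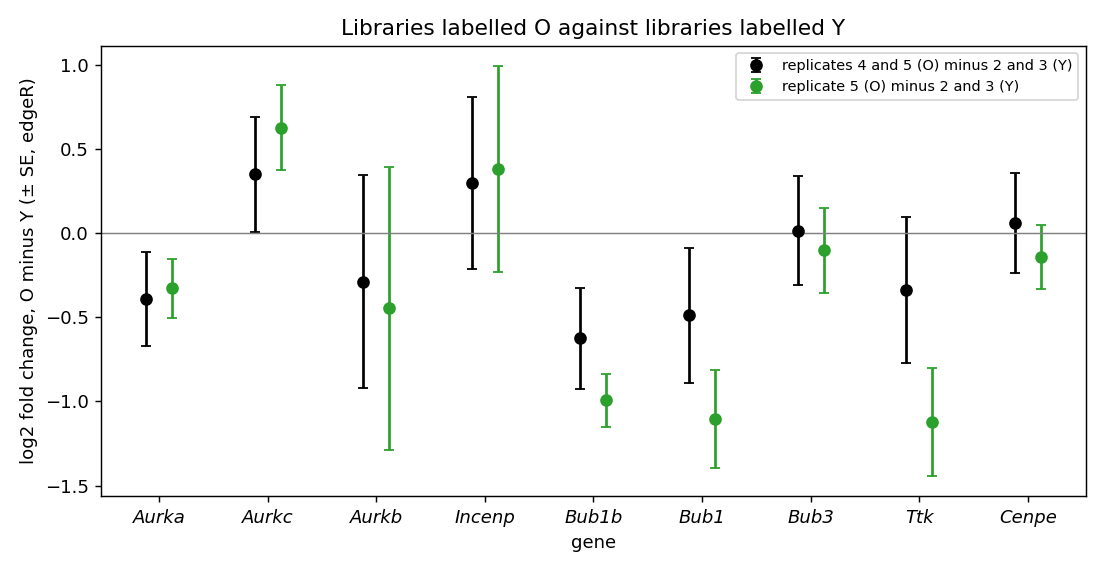
Log2 difference of each of the 9 members between the libraries with the letter O and those with the letter Y (O minus Y). Bars give an SE derived from the edgeR F statistic. Values are in black for replicates 4 and 5 against 2 and 3 and in green without replicate 4. In black no member passed the adjusted threshold and Bub1b, at -0.63 ± 0.30, lies farthest from 0; in green Bub1b passed, at -0.99.

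Profiles over the 5 naked mole-rat libraries were compared with those of 7836 named genes, as the root mean square difference of centred log2(CPM + 1) values. This measure describes 5 libraries that share their depth and marker differences, and no test was made. The closest to Aurka were Dlg2 at 0.03, Mcc at 0.05 and Cstf1 at 0.05. Cstf1, a subunit of a polyadenylation factor, had 85.2, 205, 211, 161 and 179 CPM and is the gene next to Aurka in the reference annotation of another naked mole-rat assembly, H.glaber_assembly_v1.0, where the spans of the pair do not overlap. The closest to Aurkc was Plk1, the mitotic polo-like kinase and itself on the list of Aurora partners, at 0.05, with 163, 201, 182, 215 and 332 CPM and replicate 5 highest as for Aurkc. Fbxo17 followed at 0.06 and Cry2 at 0.07. The closest to Aurkb were Serinc3 at 0.05, Parp4 at 0.06 and Atp7a at 0.06, each highest in replicate 1.

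All 9 members matched a gene of that reference annotation. None shared its span with another protein coding gene there, and 2, Aurkb and Bub1b, overlapped a small RNA or a pseudogene. The sources used here do not say whether strand was used in counting, so that reads of such overlapping genes cannot be told apart from those of the members.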

How the data were processed

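Oocyte RNA was depleted of ribosomal RNA, made into directional libraries and sequenced as 150 bp paired reads. The deposited files hold raw counts per gene, which the authors made in SeqMonk 1.47.2 after trimming (Trim Galore) and mapping (HISAT2) to HetGla_female_1.0 for naked mole-rat and Cavpor3.0 for guinea pig. For Trim Galore, version 0.6.2 is named in the methods but 0.6.1 in the submitters' processing notes, and for HISAT2 2.0.5 and 2.1.0. The paper states that fragments were quantified in paired-end libraries for the levels it plots. Whether this holds for the deposited counts, and the annotation and use of strand in counting, are not stated in the sources used here. Libraries were grouped by species and by letter from their labels. No naked mole-rat library was a duplicate of another, since the 10 pairs had a chi-square of 50.6 to 517 per gene. Of the entries of each table, 26 have date-like symbols and were matched to no gene. The coruro counts were not used.

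CPM used plain column totals, with mean and SD over 5 females, exact Poisson intervals for single levels and Clopper-Pearson intervals for shares, both at 95%. Species were compared over the 15082 shared symbols after the count minimum, with a pseudocount of 1 CPM for log2 values. Letters were compared with edgeR 4.0.16 (TMM, filterByExpr, quasi-likelihood, Benjamini-Hochberg) in R 4.3.3 with limma 3.58.1, with DESeq2 1.42.0 as an alternative. The SE of an edgeR log2 difference was derived as its absolute value over the square root of the F statistic. The script was tested on simulated data.

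Members and lists were chosen with earlier results of these data known. Named were the members, the 3 most abundant genes of each pathway list and every gene called, listed genes without an entry, and the 3 closest profiles to each Aurora gene. Alternatives were other scalings, count minimums, factors, filters and tools, and leaving out each replicate. The planned test of the Aurora order and shares per coding length needed coding lengths and were not run.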

Additional observations from a re-analysis of the deposited data

Results flagged for a closer look

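For 9 member levels, 7 shares, 10 count ratios and 23 named pathway genes over the 5 naked mole-rat libraries, it was examined whether a library was separated from its nearest neighbour by more than 0.71 of the whole range. Of the 39 values that are not ratios 2 were, where a rate of 1 in 20, set for independent normal values, gives 1.95. The share of all genes past this gap was not computed. Of 8486 genes, 33.9% were lowest and 32.5% highest in replicate 1. Of the ratios 1 also was, but they were chosen after their values were seen, and no chance rate applies to them. The library was replicate 1 each time, and the values share counts, so they are not independent. The gap was 0.807 of the range for the level of Incenp, with 64.8 CPM in replicate 1 and at most 26.0 CPM in the others. It was 0.859 for the share of Aurkb in the Aurora counts, with 4.49% against at most 1.57%. It was 0.914 for the ratio of Incenp to Aurkc, with 0.589 against at most 0.150. The summed granulosa, stroma and immune markers were also highest in this library, though not every gene of those lists was, and their part in these values was not tested.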

How the results depend on the processing

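The count of members called between species, 0 of 8, became 3 at a factor of 2, 7 with any value outside the naked mole-rat range and 1 (Bub1b) after centring on the median, and it was 0 to 1 when each replicate was left out, the 1 being Bub1b without replicate 1. The count of all genes called higher in guinea pig, 920, became 1906 and 3825 at the first 2 of these settings and 933 to 1420 with a replicate left out, and the 858 called lower became 1555 and 2991. Among all calls the share that was higher moved from 51.7% to 42.1% with centring and to 57.3% without replicate 1. Between the letters, edgeR's 0 calls became 66 without a filter on low counts and 71 with DESeq2, and 4 to 494 with a replicate left out, of which 0 to 1 were members, the 1 being Bub1b without replicate 4. The causes were not tested. Mean levels of the members stayed within 1 SD under all 63 alternatives run for them. Leaving out a single replicate cannot move such a mean by 1 SD, so for those alternatives this outcome was fixed beforehand. Shares per coding length and the test of the Aurora order were not run, for want of coding lengths. No paired analysis was possible, since each naked mole-rat library came from a different female and the guinea pig library from a pool of guinea pig females. Each member had at least 192 counts in each library that lists it, and the comparisons rest on 1 guinea pig library and on 2 libraries per letter.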
